A study of Mus musculus with 20 samples.

Results

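The genes of cholesterol and fatty acid synthesis were followed in the mouse melanoblast line melb-a, with and without hairpins against Hira, the gene of a histone chaperone. They were taken by symbol as 30 of the 29956 gene rows, 23 for sterol synthesis and its control and 7 for fatty acids, and all 30 were among the 13541 genes with enough counts to test. With the hairpin labelled shHIRA II, 20 of the 30 were lower than in the control hairpin libraries and none passed the test as higher, and 17 of those 20 were sterol genes; of all genes tested 16.7% were lower. With shHIRA I, 4 were lower (8.87% of all genes tested), and the largest differences were in the fatty acid genes Scd2 and Acly.

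Cells make cholesterol from acetyl-CoA by way of mevalonate, farnesyl diphosphate, squalene and lanosterol. The transcription factor SREBP2 (gene Srebf2) switches on most enzymes of that route when sterols in the endoplasmic reticulum are scarce: Scap escorts it to the Golgi, where it is cleaved into its active form, and the Insig proteins hold Scap back when sterols are plentiful. SREBP1 (Srebf1) acts mainly on fatty acid genes, and both kinds of lipid are needed for the membranes of growing cells.

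The poly(A) RNA libraries came from 5 groups of 4, and all cells were of wild-type genotype and grown in 10% serum with 10 ng/ml SCF and 40 pM Fgf2. Parental cells received no virus. The other groups received a lentiviral hairpin against luciferase (shLuciferase), a scrambled hairpin (shScramble) or either of the Hira hairpins (shHIRA I, shHIRA II), for 16 h with 8 µg/ml polybrene, and were selected with 1 µg/ml puromycin. The 4 libraries of a group are described as independent replicates of 1 line, so p-values measure the spread between such cultures. The control shRNA libraries below are the 8 of shLuciferase and shScramble together. Every fold change is edgeR's log2 fold change ± a standard error worked out from it and the F statistic of its test. The p-values are adjusted over all 13541 genes, and a gene was called at an adjusted p under 0.05. Counts at an unadjusted p under 0.05 stand without a share over all genes, which was not counted at that threshold. CPM are counts per 1e6 counts after TMM scaling, given as mean ± SD with n = 4 libraries or for each library in the order of replicates 1 to 4.

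Hira stood at 85.3, 84.4, 81.9 and 101 CPM in parental cells, 89.8, 72.2, 87.1 and 63.7 with shLuciferase and 81.7, 64.4, 71.3 and 79.0 with shScramble. It stood at 45.4, 26.6, 41.8 and 33.3 CPM with shHIRA I, below every control library (log2 fold change -1.05 ± 0.14, adjusted p = 5.15e-05). Under the label shHIRA II it read 63.2, 63.3, 70.9 and 69.8 CPM, with replicates 1 and 2 just under the lowest control library and the other 2 within the range of the controls (log2 fold change -0.19 ± 0.14, 95% interval -0.48 to 0.10, adjusted p = 0.306). That hairpin is therefore named by its label throughout, and no result with it is tied to a measured loss of Hira mRNA.

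The smallest library held 14.95 M counts (M, 1e6) and the largest 20.67 M. The share of counts from mitochondrially encoded mRNAs was 8.10% on average in the control shRNA libraries, 5.70% with shHIRA I and 4.19% under the label shHIRA II (two-sided exact permutation tests, adjusted p = 0.0788 and 0.00404). Replicate 3 of shHIRA I was lowest at 1.23%. The difference of shHIRA I from the controls was -0.91 percentage points without that library and -3.69 without replicate 2. The exact permutation p was 0.00606 without replicate 2, and ran up to 0.364 as single libraries were left out. Of 8 melanoblast markers 7 reached 1 TPM in some library and Ednrb did not. Their summed level was 2381 ± 504 TPM with shLuciferase and 2135 ± 461 TPM with shScramble. It was 1062 ± 680 TPM with shHIRA I, and its range of 480 to 1789 TPM met the 1462 to 2927 TPM of the control shRNA libraries. Under the label shHIRA II it was 307 ± 101 TPM, from 203 to 446 TPM. Of the 7 melanoblast markers tested, 3 were called lower with shHIRA I and 5 with the label shHIRA II (8.87% and 16.7% of all genes), and 0 higher. The sum of 5 fibroblast markers was 77.0 ± 24.7 TPM with shHIRA I, 8.12 ± 2.42 TPM with the label shHIRA II, and 30.2 ± 8.19 and 27.9 ± 5.56 TPM with shLuciferase and shScramble. With shHIRA I, 3 of the 5 were called higher (10.9% of all genes) and 2 were not called, with log2 fold changes from -0.85 to 3.65. With the label shHIRA II, 4 were called lower (16.7% of all genes) and 1 was not called. Of 4 keratinocyte and epithelial markers only Cdh1 reached 1 TPM, and their sum was 2.76 ± 1.99 TPM with shHIRA I, 1.39 ± 0.476 TPM with the label shHIRA II, and 5.68 ± 1.90 and 5.47 ± 1.73 TPM in the control groups. Of 4 leukocyte markers 2 reached 1 TPM, and their sum was 15.1 ± 2.80, 8.25 ± 1.30, 13.0 ± 1.93 and 11.7 ± 0.974 TPM in the same order. None of 4 adipocyte markers reached 1 TPM in any library. In bulk RNA, fewer cells of a type and less RNA per cell cannot be told apart, and the part of these library differences in the results below was not tested, except where a value without a library or with the mitochondrial share in the model is given.

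Promoter sequences show what the sterol genes share apart from their levels. RefSeq promoters (GRCm38.p6) were at hand for 24 of the 30 genes, and the 250 bases before each transcription start were searched on both strands. Some genes have more than 1 promoter, and a gene was counted if any of them held the letters. The letters CCAAT, the core of the NF-Y site that often lies beside SREBP sites, stood in 17 of 19 sterol genes (89.5%) and in 2 of 5 fatty acid genes (40.0%), against 37.5% of all 27025 genes. Counted by promoter, CCAAT stood in 17 of 25 for sterol genes (68.0%) and 3 of 7 for fatty acid genes, against 33.85% of all promoters. The E-box CACGTG stood in 5 of 19 sterol genes (26.3%) against 6.86% of all genes. The sterol response element-like TCACNCCAC stood only in Hmgcs1 among the 24, against 1.22% of all genes. The windows below, 5′ to 3′ on the gene's strand, are of 3 sterol genes that were lower with the label shHIRA II (Hmgcs1, Mvd, Nsdhl), 2 that were not called (Mvk, Scap) and the fatty acid gene Acly, lower with both hairpins. Capitals mark CCAAT, TCACNCCAC and CACGTG or their reverse complements. Scap has another promoter, not printed, that holds CACGTG and no CCAAT.
Hmgcs1, chr13:119690101-119690350, plus strand: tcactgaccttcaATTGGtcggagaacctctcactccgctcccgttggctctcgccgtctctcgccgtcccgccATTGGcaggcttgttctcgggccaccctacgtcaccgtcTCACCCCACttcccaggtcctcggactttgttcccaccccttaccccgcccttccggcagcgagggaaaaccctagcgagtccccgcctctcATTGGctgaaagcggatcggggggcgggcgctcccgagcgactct
Mvd, chr8:122443423-122443672, minus strand: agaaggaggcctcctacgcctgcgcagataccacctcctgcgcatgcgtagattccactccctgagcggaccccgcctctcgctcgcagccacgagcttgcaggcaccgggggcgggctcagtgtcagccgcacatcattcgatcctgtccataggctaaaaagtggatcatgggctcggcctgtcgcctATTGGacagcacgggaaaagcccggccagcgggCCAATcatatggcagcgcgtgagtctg
Nsdhl, chrX:72918271-72918520, plus strand: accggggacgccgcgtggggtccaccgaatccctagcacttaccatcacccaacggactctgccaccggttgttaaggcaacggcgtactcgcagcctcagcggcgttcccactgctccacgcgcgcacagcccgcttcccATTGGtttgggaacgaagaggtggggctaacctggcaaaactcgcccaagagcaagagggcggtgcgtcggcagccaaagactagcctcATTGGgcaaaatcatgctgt
Mvk, chr5:114444019-114444268, plus strand: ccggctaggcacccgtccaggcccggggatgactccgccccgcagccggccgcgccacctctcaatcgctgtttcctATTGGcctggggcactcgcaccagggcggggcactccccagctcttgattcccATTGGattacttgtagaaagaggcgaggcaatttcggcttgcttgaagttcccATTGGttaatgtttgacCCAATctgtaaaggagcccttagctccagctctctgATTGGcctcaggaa
Scap, chr9:110333038-110333287, plus strand: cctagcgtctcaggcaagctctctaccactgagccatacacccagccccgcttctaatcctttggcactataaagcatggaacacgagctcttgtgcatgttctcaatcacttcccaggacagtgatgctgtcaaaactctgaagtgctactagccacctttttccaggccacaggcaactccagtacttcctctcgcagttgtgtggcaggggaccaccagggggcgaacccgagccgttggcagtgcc
Acly, chr11:100528001-100528250, minus strand: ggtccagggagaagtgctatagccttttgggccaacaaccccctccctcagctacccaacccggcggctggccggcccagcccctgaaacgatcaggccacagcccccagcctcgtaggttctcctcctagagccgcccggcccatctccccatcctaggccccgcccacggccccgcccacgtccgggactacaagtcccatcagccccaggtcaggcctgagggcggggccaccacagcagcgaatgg

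The windows set called beside uncalled genes. Hmgcs1 held 3 CCAAT matches and the element TCACNCCAC, whereas Mvk, which was not called with either hairpin, held 5 CCAAT matches. Of the 13 sterol genes with a promoter that were lower with the label shHIRA II, 12 held CCAAT and Acat2 did not. Of the 6 that were not called, 5 held it and Scap did not. Acly had no match to any of the 3 motifs and was lower with both hairpins. A match describes the letters in this window and does not show that a factor binds there.

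Without a hairpin, the members spanned a wide range in parental cells. On the length-corrected TPM scale Scd2 was highest at 296 ± 55.8 TPM, followed by Fdps at 211 ± 48.0 TPM, Msmo1 at 190.4 ± 33.2 TPM and Sqle at 123 ± 19.0 TPM. Insig1, Hmgcs1, Ebp and Acly followed between 83.0 and 93.8 TPM. Fdps and Msmo1 lay within an SD of each other, and so did Hsd17b7 and Idi1. At the low end stood Hsd17b7 and Idi1 at 8.00 ± 2.51 and 7.74 ± 1.78 TPM, and Fads2 at 0.104 ± 0.108 TPM was barely detected. The summed level of the 23 sterol genes was 1387 ± 229 TPM in parental cells, 1155 ± 139 TPM with shLuciferase, 1173 ± 118 TPM with shScramble, 1032 ± 151 TPM with shHIRA I and 700 ± 81.9 TPM with the label shHIRA II. The sum of the 7 fatty acid genes was 563 ± 107, 514 ± 62.5 and 529 ± 107 TPM in the first 3 of these groups, and 268 ± 77.8 and 255 ± 68.5 TPM with the hairpins shHIRA I and shHIRA II. Scd2 was the largest part of each of these sums, at 296, 279, 298, 83.7 and 88.0 TPM in the same order. The means of Fasn, Srebf1 and Fads2 were higher with shHIRA I than in either control group. The sterol sums of the hairpins did not overlap, at 839 to 1209 TPM with shHIRA I and 608 to 784 TPM with the label shHIRA II, whereas their fatty acid sums did.

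**Figure D1:**
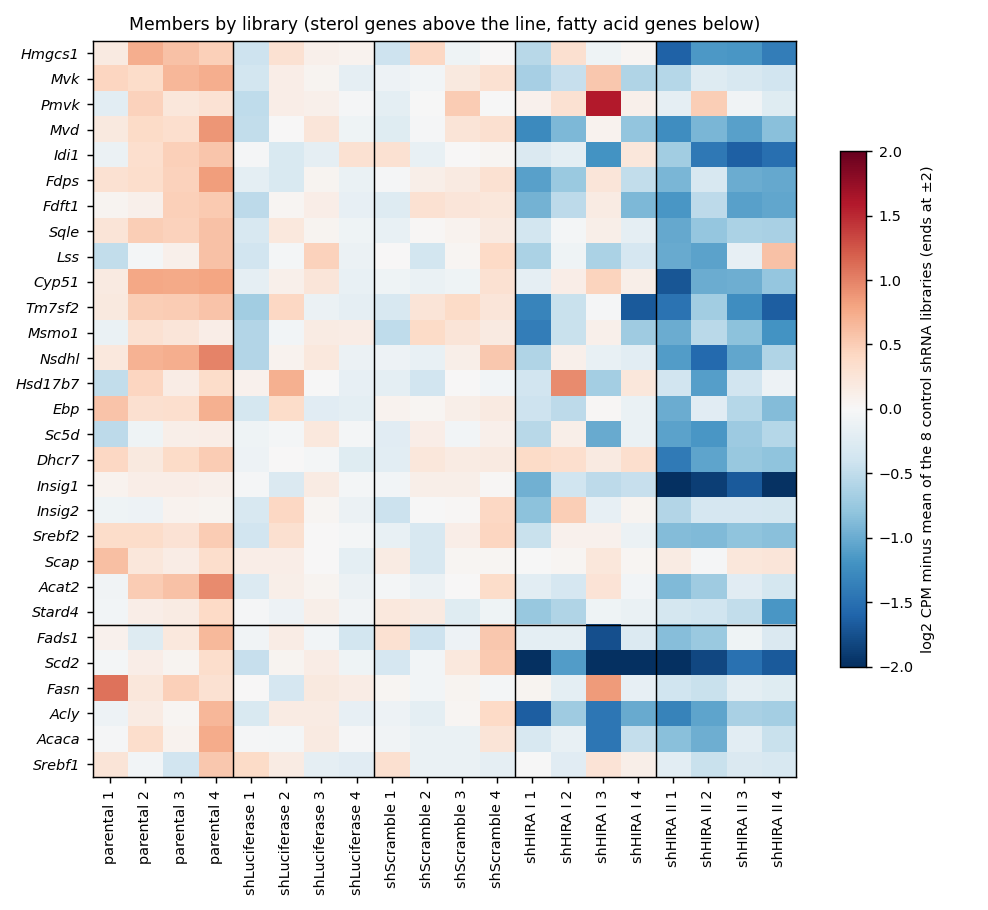
Level of 29 members (rows; Fads2 is left out because of its low counts) in the 20 libraries (columns), as log2 CPM minus the mean of the 8 control shRNA libraries, with the colour scale ending at -2 and 2. Most sterol rows are blue in the 4 libraries labelled shHIRA II, Insig1 most of all, whereas with shHIRA I Scd2 is the deepest blue over the group, and replicate 3 of shHIRA I differs from its group in several rows.

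The libraries labelled shHIRA II had lower sterol synthesis transcripts from the first steps of the route to the last. Of the 23 sterol genes 17 were lower and 0 higher than in the control shRNA libraries, with a median log2 fold change of -0.87 against 0.02 over all genes tested. Over all 13541 genes, 16.7% were called lower and 15.7% higher. At an unadjusted p under 0.05 (share over all genes not counted) the counts of sterol genes were 18 lower and 0 higher, and DESeq2 also called 17 lower. In 13 of the 23, all 4 libraries lay below all 8 controls, as did 12.7% of all genes. The count stayed at 17 with the mitochondrial share in the model and without the pair of libraries of lowest share.

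Among the regulators, Insig1 had the largest difference. Insig1 (chr5:28071363-28078662, plus strand, GRCm38), itself a target of SREBP2, stood at 227, 237, 237 and 233 CPM in parental cells, 212, 177, 242 and 211 with shLuciferase and 208, 236, 235 and 219 with shScramble. It stood at 111, 164, 151 and 158 CPM with shHIRA I and at 48.7, 58.9, 67.5 and 55.3 CPM with the label shHIRA II. The 3 levels did not overlap: every control library lay above every shHIRA I library, and those above every library labelled shHIRA II. The fall with the label shHIRA II was 3.78-fold (log2 fold change -1.92 ± 0.13, adjusted p = 7.69e-08).

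Srebf2, which encodes SREBP2, read 164, 269, 217 and 210.2 CPM with shLuciferase, 194, 171, 236 and 289.99 with shScramble, 157, 229, 229 and 198 with shHIRA I and 118, 117, 124 and 121 with the label shHIRA II. The last 4 values lay close together and below all others, and parental cells read 277, 279, 262 and 305 CPM. Srebf2 fell 1.82-fold with the label shHIRA II (log2 fold change -0.87 ± 0.15, adjusted p = 0.000287). The remaining regulators were not called. Scap read 99.6, 88.2, 104 and 105 CPM with the label shHIRA II and 98.1, 97.6, 89.8 and 78.3 and 99.996, 71.3, 91.7 and 91.3 CPM in the control groups, with overlap (log2 fold change 0.15 ± 0.11, 95% interval -0.09 to 0.39, adjusted p = 0.333). Insig2, the second Insig protein, read 48.1, 57.0, 57.0 and 56.5 CPM with the label shHIRA II. It read 57.7, 95.3, 73.8 and 66.0 and 53.5, 71.5, 73.0 and 95.3 CPM in the control groups and 40.5, 101, 64.4 and 74.4 with shHIRA I. The libraries labelled shHIRA II lay below every shLuciferase library and overlapped with shScramble and shHIRA I, and the log2 fold change was -0.42 ± 0.19 (adjusted p = 0.103, and 0.0464 with only its own groups fitted).

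**Figure D2:**
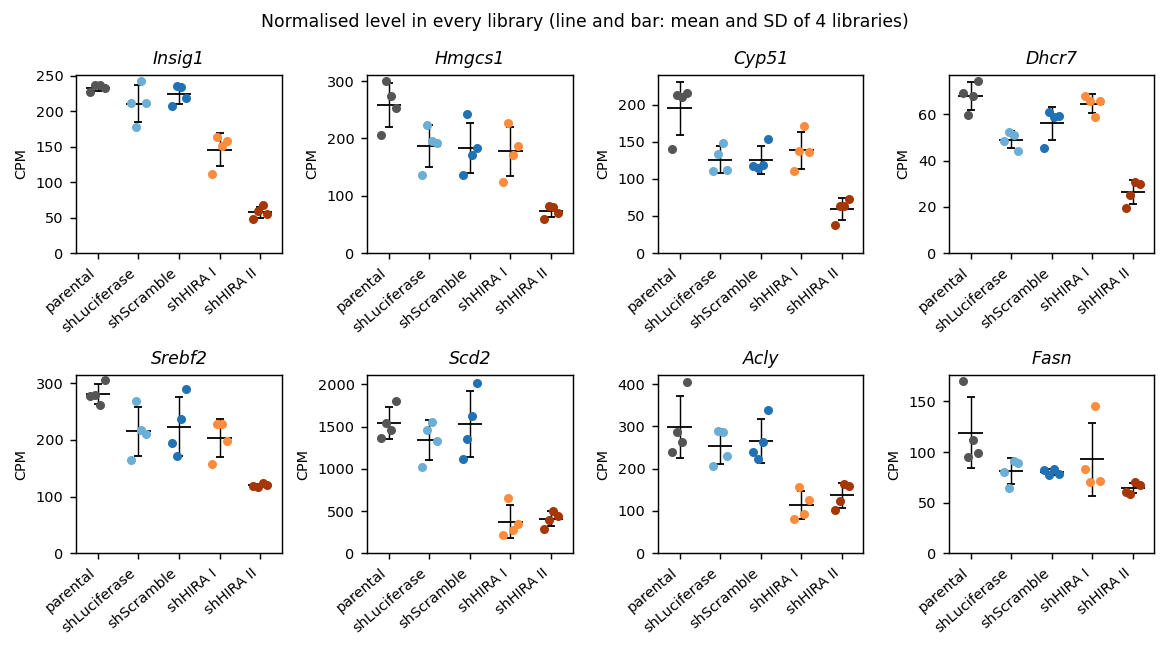
CPM in every library (points) of 8 members by group, with the mean and SD of 4 libraries as line and bar and the vertical axis starting at 0. Insig1, Hmgcs1, Cyp51, Dhcr7 and Srebf2 have their lowest points in the libraries labelled shHIRA II, whereas Scd2 and Acly are low with both hairpins, and the Fasn points of either hairpin overlap those of shLuciferase.

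From acetyl-CoA to farnesyl diphosphate, 5 of 7 genes were lower with the label shHIRA II. Hmgcs1 (chr13:119690379-119708260, plus strand), which makes HMG-CoA, read 137, 224, 195 and 191 CPM with shLuciferase and 136, 242, 171 and 183 with shScramble. It read 124, 227, 171 and 187 CPM with shHIRA I and 59.1, 81.8, 81.0 and 69.5 with the label shHIRA II, which stood below all other libraries. Its fall was 2.54-fold (log2 fold change -1.34 ± 0.19, adjusted p = 3.88e-05), and its window above is the one with the TCACNCCAC element. Mvd, the decarboxylase that makes isopentenyl diphosphate, read 22.2, 27.7, 24.5 and 29.2 CPM with the label shHIRA II against 37.3, 52.7, 62.1 and 49.3 and 44.0, 51.1, 62.5 and 65.4 CPM in the control groups, without overlap (log2 fold change -1.03 ± 0.22, adjusted p = 0.00139). Idi1, the isomerase of that product, read 8.30, 4.95, 4.31 and 4.72 CPM against 13.2, 10.8, 11.9 and 16.5 and 16.6, 12.1, 13.6 and 13.7 CPM. All 4 values were below all controls, and replicate 1 was the highest of them (log2 fold change -1.28 ± 0.24, adjusted p = 0.000599). Idi1 shares 18.8% of its 31-base words with the similar gene Gm13502, so part of its signal is uncertain.

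Fdps, which makes farnesyl diphosphate, fell (log2 fold change -0.79), as did Acat2, the cytosolic thiolase at the start of the route (-0.53). Both are less certain as single genes, since Fdps shares 27.94% of its words with Gm43738 and Acat2 43.75% with Acat3. The mevalonate kinases Mvk and Pmvk were not called, with log2 fold changes of -0.39 and 0.01. From squalene to lanosterol, squalene synthase Fdft1 (log2 fold change -0.95, 14.3% of its words shared with Gm6781) and squalene epoxidase Sqle (-0.77) fell. Lanosterol synthase Lss was not called (-0.28), and its libraries labelled shHIRA II were far apart at 37.6, 36.1, 67.3 and 113 CPM.

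From lanosterol to cholesterol, 7 of 8 genes were lower. Cyp51, which removes a methyl group from lanosterol, read 110.1, 134, 148 and 112 CPM with shLuciferase, 117, 115, 118 and 154 with shScramble, 110.3, 138, 171 and 136 with shHIRA I and 38.2, 62.8, 63.6 and 73.1 with the label shHIRA II. The last group was below all others (2.12-fold, log2 fold change -1.09 ± 0.18, adjusted p = 0.000159). Dhcr7, the reductase of the last step, read 48.5, 52.3, 50.9 and 44.1 and 45.2, 61.0, 58.7 and 59.2 CPM in the control groups, 68.1, 65.7, 58.8 and 65.9 with shHIRA I and 19.5, 25.0, 30.8 and 29.9 with the label shHIRA II. These last libraries lay below all others, and its log2 fold change was -0.99 ± 0.13 (adjusted p = 2.22e-05). Tm7sf2, a sterol reductase, was low throughout, at 9.72, 21.1, 14.6 and 14.0 and 12.6, 19.0, 20.5 and 18.8 CPM in the control groups and 5.69, 9.74, 6.67 and 5.05 with the label shHIRA II. Replicate 2 of the latter just overlapped replicate 1 of shLuciferase (log2 fold change -1.26 ± 0.28, adjusted p = 0.00252), and 12.86% of its words are shared with the overlapping Vps51. Nsdhl (log2 fold change -1.06) and Msmo1 (-0.90), which strip methyl groups from the sterol ring, fell, as did the desaturase Sc5d (-0.87) and the isomerase Ebp (-0.65). Hsd17b7, which works beside Nsdhl, was not called at -0.47. Stard4, a carrier of sterols between membranes, fell as well (-0.58).

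The lowest and highest libraries of the sterol genes given only by fold change were as follows, with the label shHIRA II first and the 8 controls second. Nsdhl ran from 11.5 to 22.2 CPM against 22.6 to 49.0 CPM, and Sqle from 113 to 148 against 184 to 265 CPM, both without overlap. Fdps (75.2 to 124 against 124 to 190.3 CPM), Fdft1 (27.4 to 42.7 against 42.8 to 76.3 CPM), Sc5d (40.6 to 61.3 against 77.4 to 105 CPM) and Stard4 (21.2 to 37.4 against 40.4 to 55.5 CPM) likewise did not overlap, although Nsdhl, Fdps and Fdft1 came close to it. Msmo1 (91.4 to 144 against 139 to 271 CPM), Ebp (19.5 to 33.2 against 30.4 to 50.01 CPM) and Acat2 (38.6 to 60.9 against 59.0 to 91.8 CPM) were called although their ranges met. Among the uncalled genes, Mvk (28.2 to 34.8 against 32.4 to 51.6 CPM), Pmvk (14.5 to 24.1 against 12.1 to 24.3 CPM) and Hsd17b7 (11.5 to 22.9 against 18.8 to 40.4 CPM) overlapped with the controls. With shHIRA I every gene of this paragraph overlapped with the controls.

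**Figure D3:**
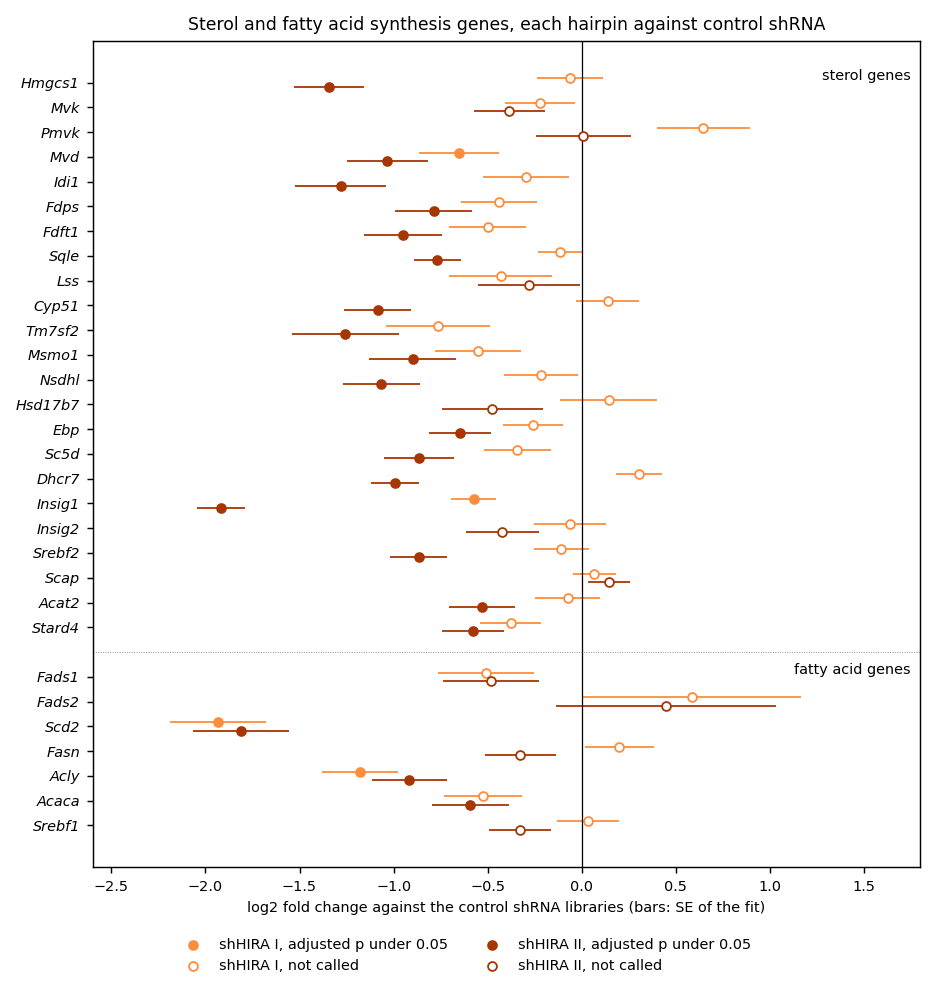
Log2 fold change ± standard error of each of the 30 members against the control shRNA libraries, with shHIRA I and shHIRA II drawn apart; filled points passed an adjusted p under 0.05. Of the points of the label shHIRA II 20 are filled, all to the left of 0, and of those of shHIRA I 4 are filled (Insig1, Mvd, Scd2 and Acly).

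With shHIRA I, the hairpin with measurably lower Hira, only Insig1 and Mvd were called among the 23 sterol genes, both lower, with a median of -0.22 for the 23 against 0.05 over all genes. Over all genes tested 8.87% were called lower and 10.9% higher. At an unadjusted p under 0.05, 7 sterol genes were lower and 2 higher (share over all genes not counted). Insig1 was 1.49-fold lower (log2 fold change -0.57 ± 0.12, adjusted p = 0.00205). Mvd read 21.6, 28.2, 54.9 and 30.3 CPM, where replicate 3 lay within the controls and the other 3 libraries lay below them all (log2 fold change -0.65 ± 0.21, adjusted p = 0.0365). The call of Mvd was lost against shLuciferase alone (adjusted p = 0.129), with only its own groups fitted (0.0908), and without replicate 3 of shLuciferase, replicate 3 or 4 of shScramble, or replicate 1, 2 or 4 of shHIRA I (up to 0.128).

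The other 21 sterol genes were not called with shHIRA I, some with values near 0. Hmgcs1 had a log2 fold change of -0.06 ± 0.18 (95% interval -0.43 to 0.31) and Srebf2 of -0.11 ± 0.15 (-0.42 to 0.20). Cyp51 and Dhcr7 had positive values of 0.14 and 0.30 and Pmvk of 0.65 (adjusted p = 0.612, 0.0889 and 0.0731). Pmvk read 18.2, 21.3, 51.5 and 18.5 CPM, so that its mean rested on replicate 3. It was called higher with the replicate block (0.58, adjusted p = 0.0470), in each limma version and without replicate 1 or 4 of shHIRA I (0.0420 to 0.0444), and Dhcr7 was with upper-quartile scaling (0.0489). Tm7sf2 had -0.76 (adjusted p = 0.0595, called without replicate 3 of shHIRA I at -1.10, and also called without replicate 1 of either control group, with DESeq2, with each limma version, with the replicate block and against parental cells, at adjusted p of 0.00840 to 0.0425), Msmo1 -0.55 and Fdft1 -0.50, none of them called. Without replicate 3 of shHIRA I, which had the lowest mitochondrial share, 10 of the 30 members were called in place of 4. With the mitochondrial share in the model 7 were called. The 10 were 8 sterol and 2 fatty acid genes, and the 7 were 5 and 2, all lower. Over all genes the number called in either direction also rose, from 2671 to 3140 and 3105 in these fits. The sterol median of -0.22 was -0.11 without replicate 1 of shHIRA I and -0.29 without its replicate 2.

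The direct test of shHIRA II against shHIRA I called 8 members, all of them sterol genes and all lower with the label shHIRA II. Over all genes tested, 12.4% were called lower and 8.6% higher. The 8 were Insig1 (log2 difference -1.34 ± 0.14, adjusted p = 6.37e-06), Dhcr7 (-1.30 ± 0.14, 1.74e-05), Hmgcs1 (-1.28 ± 0.21, 0.000346), Cyp51 (-1.22 ± 0.20, 0.000347) and Idi1 (-0.99 ± 0.27, 0.0125), with Nsdhl (-0.85), Srebf2 (-0.76) and Sqle (-0.66). The call of Idi1 was lost without replicate 4 of shHIRA I, where its adjusted p was 0.0555, and with only the groups of this contrast fitted (0.112). The median of the 23 sterol genes was -0.49 and that of the fatty acid genes -0.07, against -0.05 over all genes. At an unadjusted p under 0.05, 12 sterol genes and 1 fatty acid gene were lower and none was higher (share over all genes not counted).

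Of the 7 fatty acid genes, 2 fell with both hairpins and 1 more was called with the label shHIRA II. Scd2, a stearoyl-CoA desaturase that puts the double bond into newly made fatty acids, had the highest level of all members in the parental and control shRNA groups (chr19:44293674-44306864, plus strand). It read 1363, 1536, 1454 and 1804 CPM in parental cells, 1017, 1460.3, 1556 and 1332 with shLuciferase and 1119, 1356, 1619.6 and 2019.97 with shScramble. It read 218, 651, 277 and 351 CPM with shHIRA I and 293, 398, 500.3 and 441 with the label shHIRA II. Every library with a Hira hairpin was below every control, and the hairpins overlapped each other. Scd2 fell 3.82-fold with shHIRA I (log2 fold change -1.93 ± 0.26, adjusted p = 3.90e-05) and 3.51-fold with the label shHIRA II (-1.81 ± 0.25, adjusted p = 4.07e-05). The difference between the hairpins was 0.12 (95% interval -0.45 to 0.69).

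Acly, which makes cytosolic acetyl-CoA from citrate and so feeds both routes, read 207, 289, 287 and 229 CPM with shLuciferase and 239, 223, 262 and 338 with shScramble. It read 81.3, 156, 93.6 and 127 CPM with shHIRA I and 102, 124, 164 and 159 with the label shHIRA II, again below all controls. Its log2 fold changes were -1.18 ± 0.20 (adjusted p = 0.000418) and -0.92 ± 0.20 (adjusted p = 0.00181). Acaca, the carboxylase that makes malonyl-CoA, read 132, 149, 60.4 and 118 CPM with shHIRA I and 91.8, 83.2, 143 and 121 with the label shHIRA II, below its controls of 149 to 197 CPM. It was called with the label shHIRA II only (-0.59 ± 0.21, adjusted p = 0.0343), while shHIRA I gave -0.52 ± 0.21 (adjusted p = 0.0808), and the difference between the hairpins was -0.07 (95% interval -0.56 to 0.43). With shHIRA I it was called without replicate 2 (adjusted p = 0.0380) and against parental cells (0.0183). With the label shHIRA II it was not called with the mitochondrial share in the model (-0.31, adjusted p = 0.422), in any of 3 limma versions (0.138 to 0.145), against shLuciferase alone (0.0639) or shScramble alone (0.0787), nor without replicate 3 or 4 of shLuciferase, replicate 4 of shScramble, or replicate 1, 2 or 4 of its own group (up to 0.126). Acaca shares 33.35% of its 31-base words with Gm5182.

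The other 4 fatty acid genes were not called with either hairpin, although Fasn was called with the label shHIRA II under some other settings. Fasn, the synthase itself, read 80.6, 64.1, 91.7 and 89.2 and 82.5, 77.4, 83.6 and 78.0 CPM in the control groups, 83.8, 70.1, 146 and 71.8 with shHIRA I and 61.0, 58.9, 70.1 and 67.9 with the label shHIRA II. Replicate 3 stood high in shHIRA I, and the log2 fold changes were 0.20 ± 0.18 and -0.33 ± 0.19 (adjusted p = 0.491 and 0.195). With the label shHIRA II it was called at -0.740 with the mitochondrial share in the model (adjusted p = 0.0108), at -0.344 with only its own groups fitted (0.0238) and at -0.885 against parental cells (0.00474). Fads1, a desaturase of polyunsaturated fatty acids, read 170.2, 172, 57.9 and 162 CPM with shHIRA I and 108, 118, 185 and 160.04 with the label shHIRA II against 186, 217, 189 and 153 CPM with shLuciferase and 242, 148, 183 and 284 with shScramble (-0.51 ± 0.26 and -0.48 ± 0.26, adjusted p = 0.180 and 0.157). Replicate 3 of shHIRA I was far below its group. Srebf1 read 55.0, 47.0, 66.8 and 59.8 CPM with shHIRA I and 47.9, 40.4, 45.3 and 44.1 with the label shHIRA II, within or just under its controls of 47.3 to 71.6 CPM (0.03 ± 0.16 and -0.33 ± 0.17, adjusted p = 0.917 and 0.134). Fads2, the partner desaturase of Fads1, lay under 1 CPM in every library and was listed at 0 in replicate 2 of parental cells. It read 0.237, 0.693, 0.153 and 0.228 and 0.272, 0.397, 0.414 and 0.250 CPM in the control groups, 0.523, 0.892, 0.342 and 0.247 with shHIRA I and 0.512, 0.461, 0.513 and 0.337 with the label shHIRA II. These groups overlapped, and the log2 fold changes were 0.58 ± 0.58 and 0.45 ± 0.59 (adjusted p = 0.527 and 0.588).

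Set side by side, the label shHIRA II had 17 of 23 sterol genes and 3 of 7 fatty acid genes called lower (16.7% of all genes). With shHIRA I these counts were 2 of 23 and 2 of 7 (8.87% of all genes). In this main fit its sterol count was near the share over all genes. Without replicate 3 of shHIRA I, 8 sterol and 2 fatty acid genes were lower, with 3140 genes called in either direction in place of 2671. These counts were 5 and 2 with the mitochondrial share in the model (3105 genes called) or with the replicate block (2958). Against parental cells they were 10 and 3 (2270). The median log2 fold change was -0.87 for sterol and -0.48 for fatty acid genes with the label shHIRA II, and -0.22 and -0.51 with shHIRA I. The sterol median of shHIRA I ran from -0.29 without its replicate 2 to -0.11 without its replicate 1. Its fatty acid median ran from -0.62 without replicate 2 to -0.26 without replicate 3. Against parental cells these medians were -0.56 and -0.69. Libraries below all controls were found with the label shHIRA II for 13 sterol and 3 fatty acid genes (12.7% of all genes), and with shHIRA I for 1 sterol and 3 fatty acid genes (4.52% of all genes). Both contrasts use the same 8 control libraries. Insig1, Scd2 and Acly were lower with each hairpin against each control group, as were 2.46% of all genes in the main fit. The count of 3 became 8 without replicate 3 of shHIRA I, a fit in which the share over all genes was not counted by this rule. With the label shHIRA II alone 18 members were lower against each control group (11.8% of all genes), and with shHIRA I alone 3 (4.98%).

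The parental libraries show where the control hairpins stand. Against parental cells the control shRNA libraries had 2 members called, Sqle (-0.44) and Cyp51 (-0.63), both lower, against 3.62% of all genes in either direction. The count ranged from 0 to 3 as single libraries were left out: it was 0 without replicate 2, 3 or 4 of parental cells, replicate 1 or 4 of shLuciferase, or replicate 1, 2 or 3 of shScramble, and 1 without replicate 3 of shLuciferase. The medians were -0.36 for sterol and -0.18 for fatty acid genes, against 0.006 over all genes. At an unadjusted p under 0.05, 12 sterol genes were lower and 0 higher. The share over all genes was not counted at that threshold, so this count has no background beside it. Against parental cells, shHIRA I had 13 members lower (6.82% of all genes lower) and the label shHIRA II 22 (14.9%), with sterol medians of -0.56 and -1.21. shScramble and shLuciferase differed in 0 members by edgeR, DESeq2 or limma (0% of all genes by edgeR), and in 0 members at edgeR's unadjusted p under 0.05.

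Other lists of lipid genes gave counts in both directions. Of 9 tested genes of the isoprenoid branches that leave the mevalonate route, 0 were called with shHIRA I by edgeR (1 higher at an unadjusted p under 0.05), against 8.87% of all genes lower and 10.9% higher. With the label shHIRA II 3 rose, where 15.7% of all genes were higher. These were Pggt1b (1.38 on the log2 scale), which encodes a subunit of a protein prenyltransferase, Pdss1 (0.83), for the tail of coenzyme Q, and Nus1 (0.53), for dolichol. Against shLuciferase alone, shScramble alone or parental cells, 2 of the 9 were called higher with that label. Of 9 genes of SREBP processing and sterol-regulated degradation, the label shHIRA II had 3 lower and 1 higher (16.7% and 15.7% of all genes). With shHIRA I 1 of the 9 was lower and 1 higher, both near the shares over all genes (8.87% and 10.9%). Erlin2 (-0.80) and the ubiquitin ligase Rnf139 (-0.52) fell with the label shHIRA II. Erlin1 rose with shHIRA I (0.67), where its libraries ran from 17.4 to 48.2 TPM. They overlapped the 16.9 to 22.8 TPM with shLuciferase and the 14.3 to 21.6 TPM with shScramble. Against parental cells 0 of the 9 were called higher with shHIRA I.

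Of 14 genes of sterol export, storage and transport, the label shHIRA II had 7 lower and 3 higher (16.7% and 15.7% of all genes), and shHIRA I 2 lower and 1 higher (8.87% and 10.9%). The shares called higher, and that called lower with shHIRA I, were near those of all genes. Abca1, the pump that exports cholesterol, read 139, 203, 168 and 183 CPM with shLuciferase and 118, 157, 155 and 192 with shScramble, 178, 579.7, 183 and 405 with shHIRA I and 33.2, 34.1, 73.2 and 46.7 with the label shHIRA II. Abca1 rose with shHIRA I (1.04 ± 0.27, adjusted p = 0.00939), with 2 of its 4 libraries within the range of the controls. That rise was not called against shLuciferase alone or against parental cells, where 0 of the 14 genes were called higher. With the label shHIRA II Abca1 fell (-1.81 ± 0.30, adjusted p = 0.000195), and the hairpins differed by -2.85 ± 0.34 (adjusted p = 3.49e-05). Stard5 (0.94), a sterol carrier, and Soat1 (0.74), which stores cholesterol as esters, rose with the label shHIRA II, while Nceh1 (-1.22), an ester hydrolase, fell. Of 17 tested genes of fatty acid supply, elongation and activation, 8 fell and 0 rose with shHIRA I by edgeR (0 higher also at an unadjusted p under 0.05; 8.87% and 10.9% of all genes), and 10 fell and 1 rose with the label shHIRA II (16.7% and 15.7%). Those with the smallest p were Elovl7 (-1.73) and Tecr (-1.29), of chain elongation, Acsl3 (-1.34), which activates fatty acids, and Lpin1 (-1.53), a phosphatidate phosphatase, all with the label shHIRA II.

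**Figure D4:**
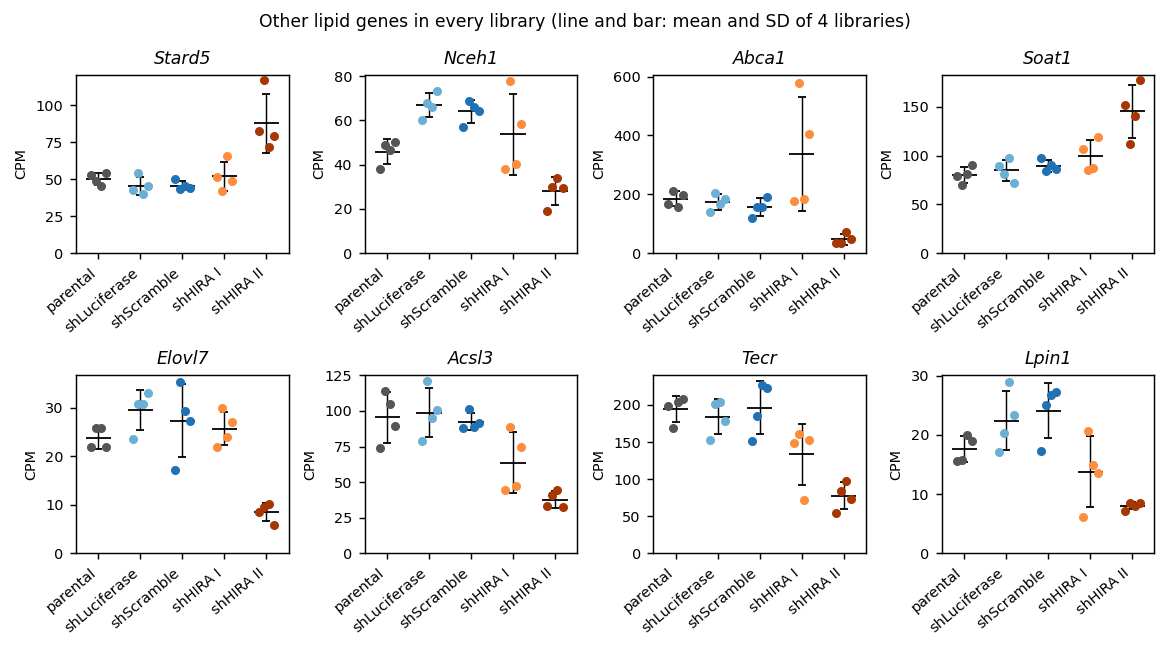
CPM in every library (points) of 8 related lipid genes by group, with the mean and SD of 4 libraries as line and bar and the vertical axis starting at 0. Stard5 and Soat1 have their highest means and the other 6 their lowest means in the libraries labelled shHIRA II, and the 4 shHIRA I libraries of Abca1 spread from near the controls to well above them.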

How the data were processed

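Gene tables of poly(A) RNA-seq were analysed for 20 libraries, 5 groups of 4. The submitters' processing notes name build mm10 and the tools kallisto, bcl2fastq and edgeR; of their versions, annotation and strand setting nothing is given in the sources used here. Estimated counts per gene and TPM, made by the authors, were the deposited values. The counts equalled TPM times 1 length per gene up to a factor per library (10440 genes compared), so shifts between isoforms do not enter them. By elimination, the columns called control with no hairpin were read as parental and shHIRA columns lacking a numeral as shHIRA I.

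Estimated counts were rounded. Genes passing edgeR's default filter by group (13541) were fitted with TMM scaling and 1 mean per group, using all 20 libraries, and tested with the quasi-likelihood F test (edgeR 4.0.16, R 4.3.3), with Benjamini-Hochberg adjustment over all of them. That test gives no standard error, so the absolute log2 fold change was divided by the square root of F. Intervals of 95% use this standard error and a t quantile with libraries less groups as degrees of freedom, not those of the test. They cover the spread between libraries. TPM served to compare levels between genes. DESeq2 1.42.0, limma 3.58.1 on log2(TPM + 1) or log2(TPM + 0.1), other scalings, no filter, a replicate block, the mitochondrial share as covariate and leaving out each library were alternatives; the fit without the pair of libraries of lowest mitochondrial share was added after seeing the data. Only the main edgeR fit was tested on simulated data, and the alternatives were not.

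Members and lists were chosen with earlier results of these data known. Full values are given for the 5 sterol genes of largest change among those called in each hairpin contrast, the 7 fatty acid genes and 4 regulators; other lists name the called genes of smallest p, at most 4 a list; 1 gene that this rule names is not reported here. Values given beyond these (Lss and Pmvk by library, ranges of the sterol genes given by fold change) were chosen after seeing the data. Gene positions are from GENCODE (GRCm38), promoters from RefSeq (GRCm38.p6).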

Additional observations from a re-analysis of the deposited data

Results flagged for a closer look

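In 11 of 100 groups of 4 libraries checked for a single library far from the other 3, 1 stood apart by Dixon's test; chance alone marks about 1 in 20. Low libraries were Cyp51 in parental replicate 1 (141 CPM, others 210.5 to 216), Dhcr7 in shScramble replicate 1 (45.2, others 58.7 to 61.0), Insig2 in replicate 1 labelled shHIRA II (48.1, others 56.5 to 57.0) and Fads1 in shHIRA I replicate 3 (57.9, others 162 to 172). High libraries were Idi1 in replicate 1 labelled shHIRA II (8.30 CPM, others 4.31 to 4.95), Cyp51 in shScramble replicate 4 (154, others 115 to 118) and Srebf1 in shScramble replicate 1 (68.5, others 48.8 to 50.2). Acaca was high in shLuciferase replicate 3 (186 CPM, others 159.7 to 162) and in shScramble replicate 4 (197, others 149 to 157), and Fads2 in shLuciferase replicate 2 (0.693, others 0.153 to 0.237). The mitochondrial share was low in replicate 2 labelled shHIRA II (2.88%, others 4.45% to 4.71%).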

How the results depend on the processing

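With the label shHIRA II the count of 20 members stayed between 18 and 20 as single libraries were left out, and the count of 8 against shHIRA I between 7 and 10. With shHIRA I the count of 4 became 8 with the replicate block (7 lower, and Pmvk higher), 7 with the mitochondrial share as covariate, 10 without the pair of libraries of lowest share and 13 against parental cells, and 3 to 10 as single libraries were left out. Over all genes, 2671 were called in the main fit, 2958 with the block and 3105 with the covariate. Without that pair 3318 were called, and against parental cells 2270. Same-numbered libraries had a median correlation of 0.06 in their deviations (-0.29 to 0.39, 40 pairs). Libraries of different numbers had -0.02 (-0.27 to 0.44, 120 pairs). The labels give replicate numbers and name no pairing, so the main fit has no block. That 13 of 20 libraries correlated best with their own number is a hint of a shared effect from the data, not the design. How many would do so by chance was not tested. The block moved control shRNA against parental from 2 to 5 (490 and 607 genes called in all). The count of control shRNA against parental was 1 with RLE scaling (478 genes called in all), 4 with DESeq2 (875) and 7 without the low-share pair (844). It was 8 with only its own groups fitted (880), 0 with limma (each of 3 versions) or no filter, and 0 to 3 as libraries were left out. Members lower with both hairpins against both controls went from 3 to 8 without the low-share pair (2 to 8 as libraries were left out). By that rule the share over all genes was counted in the main fit only. Members called with shHIRA I against parental went from 13 to 5 with its own groups (9 to 18 as libraries were left out). Over all genes that change was from 2270 to 891 called.

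Against parental cells the sterol medians were -0.56 (shHIRA I) and -1.21 (label shHIRA II) and the fatty acid median of the label shHIRA II -0.88; limma on log2(TPM + 1), with or without a minimum of 1 TPM, gave a sterol median of -0.74 for that label. As libraries were left out, the sterol medians ran from -0.29 to -0.11 and from -0.90 to -0.78, and the fatty acid medians from -0.62 to -0.26 and from -0.62 to -0.35. The mitochondrial share of shHIRA I differed from the controls by -3.69 to -0.91 percentage points as libraries were left out (exact permutation p from 0.00606 to 0.364).

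Signs turned for uncalled genes near 0, all with shHIRA I unless said; the cause was not tested. With the mitochondrial covariate Hmgcs1 was 0.0697, Fasn -0.113, Srebf1 -0.121 and Insig2 0.0802. With limma Hmgcs1 was 0.0354 and Srebf2 0.00336 (log2(TPM + 1), with or without the minimum), or 0.0356 and 0.00368 (log2(TPM + 0.1)). Without the low-share pair Fasn was -0.11 and Srebf1 -0.0524. Against parental cells Cyp51 was -0.49, Dhcr7 -0.0702, Fasn -0.36, Srebf1 -0.0789, Scap -0.27 and, with the label shHIRA II, Scap -0.19; against shLuciferase alone Srebf1 was -0.00530. As libraries were left out, Hmgcs1 ran from -0.203 to 0.0719, Fasn from -0.11 to 0.31, Srebf1 from -0.0584 to 0.115 and Insig2 from -0.29 to 0.12. Depth and 4 libraries a group limit small differences, most of all for Fads2.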
